A study of Mus musculus with 12 samples.

Results

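The HoxB genes on mouse chromosome 11 were followed in Six2-expressing kidney cells at postnatal day 0. Members were the rows of the deposited table (build mm9) that overlapped a window set by position, from just below Gm11538 to just beyond Hoxb1, which held 17 of the 55115 transcripts with a position. Transcripts overlapping on one strand were summed to loci, giving 14 of 26699 loci. Of these 14 loci, 13 were on the plus strand, in the order that ends with Hoxb1, and 1 was on the minus strand. The 9 Hox genes from Hoxb9 to Hoxb1 were among them, together with Gm11538, Mir196a-1, Mir10a, Hoxb5os and 1 locus without a name. A filter on low counts kept 11 of the 14 for testing. The other 3 were Hoxb1, with few fragments, and the microRNA hairpins Mir196a-1 and Mir10a, with none.

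Hoxb13 itself fell just outside the window. The file pairs no transcript with a gene name, so names were set by the exact length of rows and their spacing. The row at chr11:96064768-96066699, which the definition of the window calls Hoxb13, began at the position where RefSeq places the start of Gm11538, a noncoding gene. The row at chr11:96055675-96057913 had the spacing of Hoxb13, the most 5′ gene of the cluster, and it is described beside the members. Positions of loci are given in mm9 with the first base counted as 1, and those of promoters in GRCm38.p6.

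Hox genes encode homeodomain transcription factors that give cells their position along the body axis. In each cluster the genes lie in the order in which they are used, with the highest numbers, at the 5′ end, active latest and most posteriorly. Polycomb repressive complex 2 (PRC2), of which Eed is a core subunit, methylates histone H3 at lysine 27 and is known for holding Hox genes silent outside their domains. In the embryonic kidney Hoxb7 is best known as a gene of the ureteric bud.

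RNA was measured in 12 samples, 4 mutant low, 4 control low, 2 mutant high and 2 control high, as the titles call them. Every sample was labelled as P0 fetal kidney cells with the R26R-tdTomato reporter, from Six2-expressing cells isolated by FACS (flow cytometric sorting). Eed appears in the series title only. The labels do not name the allele, Cre driver or deleted part of the mutants, nor which signal was low or high, nor whether samples came from separate animals. P-values thus speak to the spread among the samples at hand, part of which may be technical. In sorted bulk samples, fewer cells of a type and less RNA per cell cannot be told apart.

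Libraries held 4549011 to 12365078 fragments, with the smallest totals in the control high pair. Eed itself averaged 8.44 ± 2.56 CPM (fragments scaled to library size) in mutant low samples and 14.1 ± 1.09 CPM in control low samples (SD, n = 4 each), whose ranges did not overlap. It stood at 4.73 and 7.26 CPM in mutant high samples and 8.74 and 9.07 CPM in control high samples. Neither difference passed edgeR's quasi-likelihood test (adjusted p = 0.107 in low and 0.291 in high cells), and with the deleted part unnamed these counts check the labels only in part. Six2, the gene used for the sort, averaged 793 CPM in mutant low and 1703 CPM in control low cells. It averaged 105 CPM in mutant high and 40.1 CPM in control high cells. Of 4 nephron epithelium markers, Cdh1 and Epcam were called higher in high than low cells in both genotypes by edgeR's quasi-likelihood test. Cdh1 averaged 340 CPM in the mutant high samples and 6.94 CPM in the mutant low ones. In controls it averaged 432 CPM in the high samples and 16.1 CPM in the low ones. Pax8 and Lhx1 were not called between high and low cells. Pax8 averaged 358 CPM in the mutant high samples and 664 CPM in the mutant low ones. In controls it averaged 115 CPM in the high samples and 203 CPM in the low ones.

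Regulatory sequence was available for 4 genes of the region in the RefSeq promoter table (GRCm38.p6; 250 bases before to 50 after a gene's start). The promoters of 3 loci along the cluster are shown, from its 5′ end to its 3′ end. That of Hoxb4, which also passed no test, is not shown. The first is listed for Gm30134, a minus-strand gene, and spans the RefSeq start of Gm11538, whose level rose in the mutants. The others belong to Hoxb8, for which no rise was called, and Hoxb1, which was too low to test. Capitals mark the motif CG, which reads the same on both strands and in which the promoters that PRC2 is known to occupy are rich.
Gm30134, chr11:96203379-96203678, minus strand: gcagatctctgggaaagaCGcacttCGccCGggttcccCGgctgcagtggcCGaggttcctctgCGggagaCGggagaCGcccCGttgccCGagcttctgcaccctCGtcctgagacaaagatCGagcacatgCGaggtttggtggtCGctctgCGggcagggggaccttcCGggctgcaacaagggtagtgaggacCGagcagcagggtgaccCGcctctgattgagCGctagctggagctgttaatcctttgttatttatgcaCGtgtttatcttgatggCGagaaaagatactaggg
Hoxb8, chr11:96281655-96281954, plus strand: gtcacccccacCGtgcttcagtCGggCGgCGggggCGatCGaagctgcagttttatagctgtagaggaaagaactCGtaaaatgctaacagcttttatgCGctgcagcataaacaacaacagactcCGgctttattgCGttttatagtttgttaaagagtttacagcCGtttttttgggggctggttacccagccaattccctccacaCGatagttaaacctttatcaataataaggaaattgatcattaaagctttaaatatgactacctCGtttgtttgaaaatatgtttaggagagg
Hoxb1, chr11:96365508-96365807, plus strand: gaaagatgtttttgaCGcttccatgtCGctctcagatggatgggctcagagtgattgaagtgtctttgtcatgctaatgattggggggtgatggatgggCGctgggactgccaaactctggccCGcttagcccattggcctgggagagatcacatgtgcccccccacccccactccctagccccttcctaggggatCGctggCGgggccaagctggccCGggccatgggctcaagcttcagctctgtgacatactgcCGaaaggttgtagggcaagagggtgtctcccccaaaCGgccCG
The Gm30134 window held 21 CG motifs, and 24.8% of the 32851 promoters in the table held at least as many. The Hoxb8 promoter held 13 (at least as many in 37.9% of promoters), and the Hoxb1 promoter held 10 (43.5%). The Hoxb4 promoter held 14 (36.3%). A link between CG and level was not tested. The median promoter held 7. The Hoxb8 promoter also contained TATAAA on 1 of its strands, as did 13.6% of all promoters.

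The cluster also carries 2 microRNA genes. Their mature sequences from RefSeq (GRCm38.p6) are shown with the seed, bases 2 to 8, in capitals, because miR-196 is known to direct cleavage of Hoxb8 mRNA. The best match in the Hoxb8 transcript of GENCODE M21 follows, at bases 2208 to 2229 of that transcript, with the bases opposite the seed in capitals.
mmu-miR-196a-5p: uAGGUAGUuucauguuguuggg
mmu-miR-10a-5p: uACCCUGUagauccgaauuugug
Hoxb8 site: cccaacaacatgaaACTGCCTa
The miR-196a site paired at 21 of 22 bases, with 1 further G:U wobble. The best match in any other HoxB gene paired at 14 of 22 bases, among 21 transcripts of 10 genes searched. The hairpin rows themselves, Mir196a-1 (chr11:96126478-96126579) and Mir10a (chr11:96178479-96178588), were at 0 in all 12 samples. The cDNA kit starts from polyadenylated RNA, so mature microRNAs were not measured.

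At the 5′ end of the cluster, Gm11538 rose in the mutants in both populations. It had 18.9, 10.5, 12.3 and 8.28 CPM in the mutant low samples, against 0, 0.136, 0.432 and 0.246 CPM in the control low samples. It had 18.3 and 18.1 CPM in the mutant high samples, against 0 and 0.567 CPM in the control high samples. All 6 mutant samples lay above all 6 control samples. Gm11538 passed the count filter only through mutant samples, where it was high, so its calls are given as a description.

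In low cells Gm11538 averaged 12.5 ± 4.59 CPM in mutants and 0.204 ± 0.183 CPM in controls (SD, n = 4 each), a log2 fold change of 5.78 (SE 0.55, edgeR's quasi-likelihood test, adjusted p = 1.7e-05). The 446 fragments in mutant low and 8 in control low libraries gave a ratio of 57.0 (95% exact binomial interval 28.7 to 133). In high cells it averaged 18.2 ± 0.119 CPM in mutants and 0.284 ± 0.401 CPM in controls (SD, n = 2 each), a log2 fold change of 6.13 (SE 0.86, edgeR's quasi-likelihood test, adjusted p = 0.000286). There the 336 fragments in mutant high and 2 in control high libraries gave a ratio of 75.8 (interval 20.8 to 628). These intervals, and the floors used for groups at 0, cover counting error only. The mutant effect in high minus low cells was 0.35 on the log2 scale (SE 1.36, adjusted p = 0.902 by the same test), too wide to show whether the sizes differ. Strand is not marked by the kit's standard libraries, so fragments here cannot be assigned to a strand. By its promoter window, the minus-strand Gm30134 starts just below the start of Gm11538 and runs the other way. The listed genes thus do not overlap, and transcription beyond their listed starts was not tested.

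Hoxb13, which marks the posterior end of the Hox code, was low but followed the same pattern. It had 1.04, 1.52, 0.333 and 0.162 CPM in the mutant low samples, from 9, 10, 3 and 2 fragments, and no fragment in the 4 control low samples. It had 2.61 and 2.22 CPM in the mutant high samples, from 27 and 18 fragments, and no fragment in the 2 control high samples. Every mutant sample held the transcript and no control sample did.

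Hoxb13 passed the count filter only through the mutant high samples, where it was high, so its difference in high cells is given with no test. With a floor of 3 fragments over a group, it was at least 6.70-fold higher in mutant high than control high cells. It was at least 9.52-fold higher in mutant low than control low cells (edgeR's quasi-likelihood test, adjusted p = 0.0245). No control sample reached the cutoff of the count filter, so this low-cell call is given as a description. The low-cell call was lost without mutant low replicate 1 (adjusted p = 0.0605), within the libraries whose description number was above 7 (0.154) and with each transcript as a feature (0.108).

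**Figure D1:**
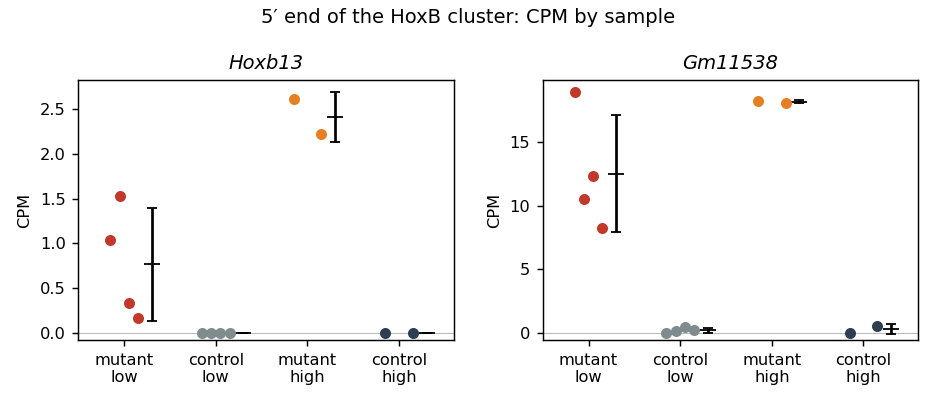
CPM of Hoxb13 and Gm11538 in every sample, with each point 1 sample and bars the mean ± SD of a group. Gm11538 lies at 8.28 to 18.9 CPM in all 6 mutant samples and at 0 to 0.567 CPM in the controls, and Hoxb13 is at 0 in all 6 controls.

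The unnamed locus at chr11:96113083-96124288, between Gm11538 and Hoxb9, passed no test. It averaged 0.791 CPM in mutant low and 1.15 CPM in control low cells, and lay at 1.84 and 0.738 CPM in mutant high and 1.87 and 1.13 CPM in control high samples. Mutant and control ranges overlapped in both.

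Most genes in the rest of the cluster passed no test between mutant and control cells. In low cells, 1 of the 11 tested members was called higher in mutants, Gm11538, and 0 were called lower, by edgeR's quasi-likelihood test. Of all loci tested, 8.03% were called in this comparison, 4.82% higher and 3.21% lower. An unadjusted p under 0.05 was reached by 2 of 11. The median log2 fold change was -0.54 for the members and -0.06 for all loci.

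In high cells, 1 member was called higher, Gm11538, and 2 were called lower, Hoxb3 and Hoxb6. Gm11538 passed the count filter only through mutant samples, and Hoxb6 only through the control high samples. Of all loci tested, 27.5% were called in high cells, 16.3% higher and 11.2% lower, so 3 of 11 is close to the share over all loci. The member ranges did not overlap for 6 of 11 in high cells, against 67.1% of all loci tested, and for 2 of 11 in low cells, against 14.2% of all loci. The median log2 fold change was -0.27 for the members and 0.08 for all loci. For the mutant effect in high minus low cells, 0 of 11 members were called by edgeR's quasi-likelihood test and 0 had an unadjusted p under 0.05. DESeq2 and limma-voom also called 0 there, while 10.3% of all loci were called by edgeR, 7.29% higher and 3.05% lower.

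**Figure D2:**
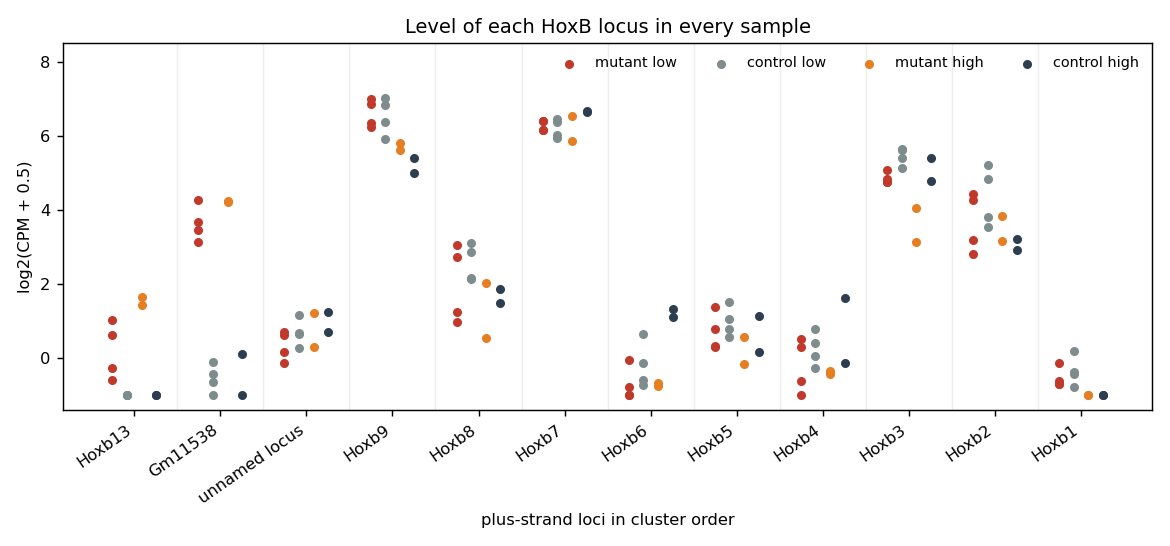
Level, as log2(CPM + 0.5), of the plus-strand loci in cluster order from Hoxb13 to Hoxb1, with a point for every sample and a colour for each of the 4 groups. Levels are high at Hoxb9, Hoxb7, Hoxb3 and Hoxb2 and low at Hoxb8 and from Hoxb6 to Hoxb4, and mutant and control samples lie far apart at Gm11538.

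Hoxb9 (chr11:96132644-96137907), a posterior patterning gene, was among the highest members. It had 117, 127, 75.4 and 81.0 CPM in the mutant low samples, against 60.0, 130, 82.4 and 115 CPM in the control low samples. It had 55.3 and 48.6 CPM in the mutant high samples, against 42.0 and 31.2 CPM in the control high samples. The low-cell ranges overlapped and the high-cell ranges did not.

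The Hoxb9 log2 fold change was 0.05 in low cells (SE 0.26, edgeR's quasi-likelihood test, adjusted p = 0.946, interval -0.50 to 0.59). It was 0.50 in high cells (SE 0.37, adjusted p = 0.334, interval -0.28 to 1.29). Between populations the gene did change. Hoxb9 averaged 51.9 CPM in the mutant high samples and 100 CPM in the mutant low ones, a log2 fold change of -0.94 (SE 0.33, adjusted p = 0.0386). In control cells it averaged 36.6 CPM in high and 96.8 CPM in low, a log2 fold change of -1.40 (SE 0.34, adjusted p = 0.00304). The mutant call was lost without mutant low replicate 1 or 2 or either mutant high library (adjusted p = 0.0701, 0.0753, 0.117 and 0.191). It was also lost with each transcript as a feature (0.0550), with 50% reciprocal overlap (0.0543) and with only the 2 groups fitted (0.0544). The control call was lost without control high replicate 2, where the value was -1.15 (adjusted p = 0.0654).

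Hoxb8 (chr11:96143219-96146639), a regulator of posterior identity and of myeloid cells, was at a few CPM. It had 6.12, 7.77, 1.44 and 1.87 CPM in the mutant low samples, against 6.78, 8.15, 3.89 and 3.94 CPM in the control low samples. It had 0.966 and 3.57 CPM in the mutant high samples, against 2.29 and 3.12 CPM in the control high samples. The mutant and control ranges overlapped in both populations, and no comparison of Hoxb8 passed the test in the fit without a replicate block. By the number in the descriptions, which high and low libraries share, Hoxb8 was lower in the high library of all 4 pairs.

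Hoxb7 (chr11:96147960-96151477), the ureteric bud gene, passed no test. It had 70.9, 83.7, 83.5 and 71.5 CPM in the mutant low samples, against 64.3, 61.3, 82.6 and 87.0 CPM in the control low samples. It had 57.4 and 93.0 CPM in the mutant high samples, against 100 and 102 CPM in the control high samples. The low-cell log2 fold change was 0.07 (interval -0.35 to 0.49), and the high-cell value was -0.43 (interval -1.03 to 0.17). The high-cell ranges did not overlap. The other 3 ureteric bud markers, Ret, Wnt11 and Gata3, summed to 122 to 159 CPM in mutant high and 59.7 to 67.5 CPM in control high libraries. Their sums were 43.9 to 66.2 CPM in mutant low and 23.7 to 53.1 CPM in control low libraries. Their part in the Hoxb7 level was not tested.

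Hoxb6 (chr11:96160485-96162883) was near the limit of detection. It had 0, 0.457, 0 and 0.0812 CPM in the mutant low samples, against 1.05, 0.408, 0.108 and 0.164 CPM in the control low samples. In high cells it had 0.0966 and 0.123 CPM in mutants, against 1.66 and 1.98 CPM in controls, from 1 and 1 fragment against 8 and 7.

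Hoxb6 passed the count filter only through the control high samples, where it was high, so its call is a description and supports nothing. The high-cell ranges did not overlap (log2 fold change -3.89, SE 1.26, edgeR's quasi-likelihood test, adjusted p = 0.0332). The 2 fragments in mutant high and 15 in control high libraries gave a ratio of 0.0601 (exact binomial interval 0.00667 to 0.259). The call was lost without any 1 of the 4 high libraries (adjusted p = 0.0976 to 0.153), with each transcript as a feature (0.223) and with 50% reciprocal overlap (0.0807). Hoxb5os, an antisense transcript on the minus strand across Hoxb6 and Hoxb5 (chr11:96152350-96168224), averaged 1.77 CPM in mutant high and 1.80 CPM in control high cells. These means hide a wide spread, with 3.28 and 0.246 CPM in the mutant high samples and 1.04 and 2.55 CPM in the control high samples. Fragments of Hoxb5os cannot be told apart from those of Hoxb6 and Hoxb5 by strand.

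The central genes Hoxb5 (chr11:96164826-96167435) and Hoxb4 (chr11:96179581-96182952) were also scarce. Hoxb5 averaged 1.20 CPM in mutant low and 1.52 CPM in control low cells, and 0.686 CPM in mutant high and 1.16 CPM in control high cells, with overlapping ranges. Hoxb4, which is known for its role in blood stem cells, averaged 0.452 CPM in mutant low and 0.728 CPM in control low cells. It had 0.290 and 0.246 CPM in the mutant high samples, against 0.416 and 2.55 CPM in the control high samples. Neither gene passed the test in any comparison.

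Hoxb3 (chr11:96184440-96209244), which acts in hindbrain and neck patterning, fell in mutant high cells, and the low-cell difference did not pass the test. It had 33.6, 28.0, 26.3 and 26.5 CPM in the mutant low samples, against 34.7, 48.5, 41.8 and 49.7 CPM in the control low samples. It had 16.1 and 8.25 CPM in the mutant high samples, against 42.0 and 26.9 CPM in the control high samples. Neither pair of ranges overlapped.

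Hoxb3 averaged 28.6 ± 3.41 CPM in mutant low and 43.7 ± 6.89 CPM in control low cells (SD, n = 4 each). The low-cell log2 fold change was -0.61 (interval -1.12 to -0.10, unadjusted p = 0.0225 and adjusted p = 0.151 by edgeR's quasi-likelihood test). In high cells it averaged 12.2 ± 5.58 CPM in the mutants and 34.5 ± 10.7 CPM in the controls (SD, n = 2 each), a log2 fold change of -1.50 (SE 0.35, interval -2.25 to -0.75, edgeR's quasi-likelihood test, adjusted p = 0.00618). Without mutant high replicate 2 the value was -1.08 (adjusted p = 0.0737), and without control high replicate 1 it was -1.10 (adjusted p = 0.0747). The call was also lost with each transcript as a feature (adjusted p = 0.145) and with 50% reciprocal overlap (0.0695). The difference between the high-cell and low-cell effects was -0.89 on the log2 scale (SE 0.42, adjusted p = 0.203).

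Hoxb2 (chr11:96212946-96215328), a hindbrain gene, passed no test between mutant and control cells. It had 18.8, 21.0, 6.55 and 8.69 CPM in the mutant low samples, against 36.7, 27.9, 13.6 and 11.2 CPM in the control low samples. It had 8.41 and 13.7 CPM in the mutant high samples, against 7.07 and 8.79 CPM in the control high samples. Mutant and control ranges overlapped in both populations, and the adjusted p was 0.398 in low and 0.617 in high cells by edgeR's quasi-likelihood test. In both genotypes low replicates 1 and 2 lay above 3 and 4, as they did for Hoxb8. Within each of these sets the mutants lay below the controls for Hoxb2. The log2 fold changes there were -0.70 and -0.69 (adjusted p = 0.298 and 0.216 by the same test). Hoxb1 (chr11:96227072-96229567), at the 3′ end of the cluster, had 8 fragments in mutant low and 11 in control low libraries, and none in mutant high or control high libraries.

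**Figure D3:**
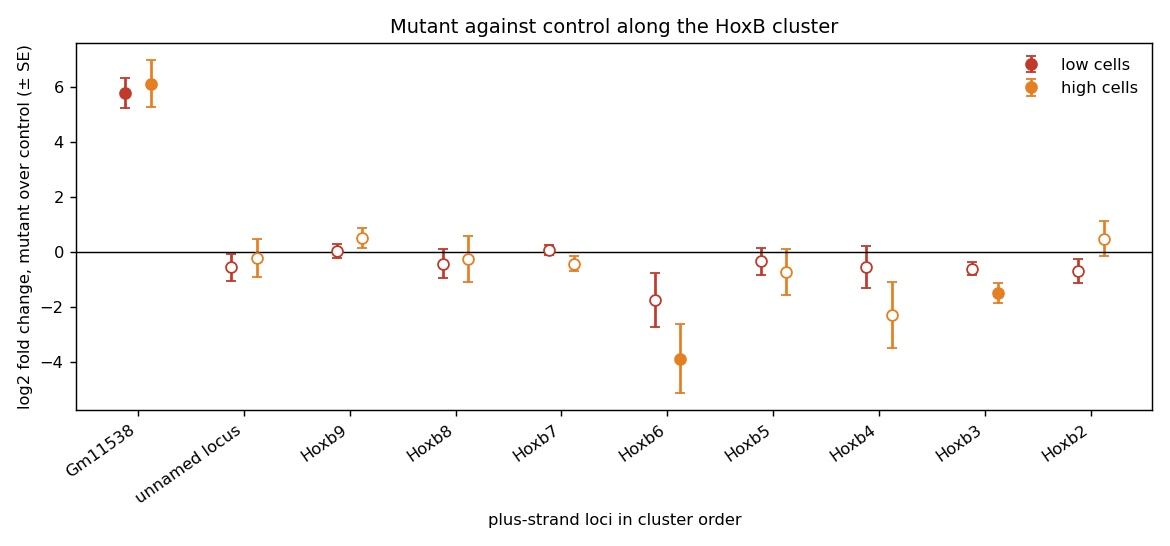
Log2 fold change of mutant over control, with SE, for the 10 loci from Gm11538 to Hoxb2 in low and in high cells, filled where the adjusted p was under 0.05. Gm11538 stands at 5.78 and 6.13, Hoxb9 at 0.05 and 0.50, with Hoxb3 and Hoxb6 filled in high cells only.

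**Figure D4:**
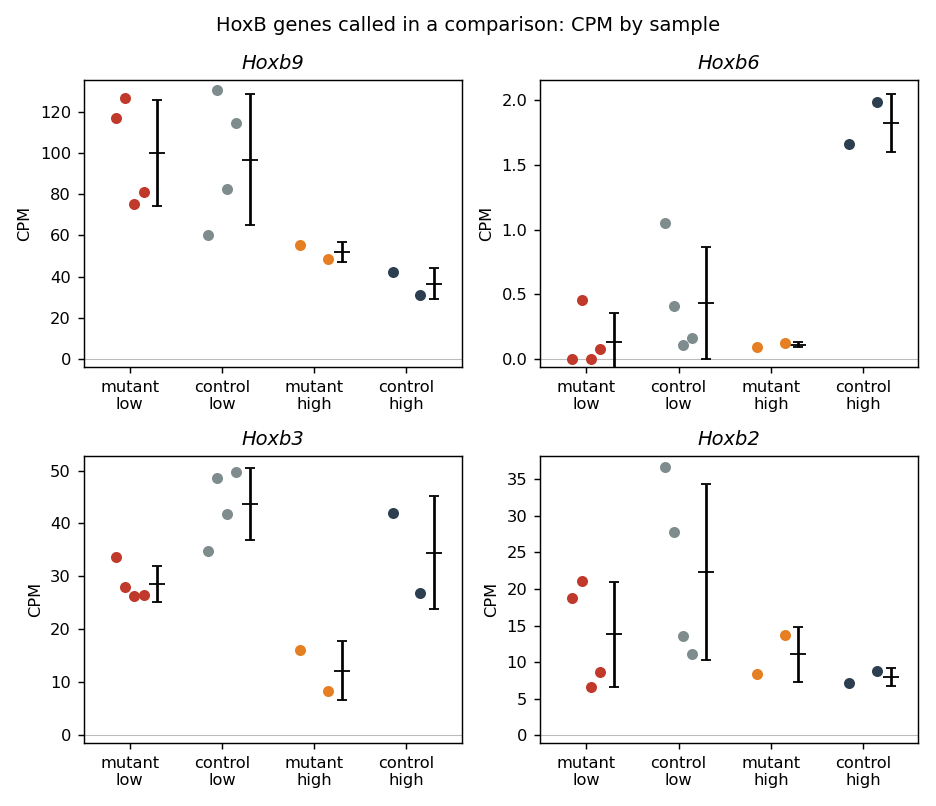
CPM of Hoxb9, Hoxb6, Hoxb3 and Hoxb2 in every sample, with each point 1 sample and bars the mean ± SD of a group. Hoxb3 ranges of mutants and controls do not overlap in either population, and Hoxb6 is at 1.66 and 1.98 CPM in the control high samples and below 0.2 CPM in the mutant high ones.

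Between high and low cells, Hoxb9 fell in both genotypes. In mutant cells, 0 members were called higher in high cells and 2 lower, Hoxb9 and Hoxb3, while 32.2% of all loci were called in this comparison, 19.0% higher and 13.2% lower. In control cells, 0 were called higher and 2 lower, Hoxb9 and Hoxb2, while 52.3% of all loci were called, 25.3% higher and 27.0% lower. An unadjusted p under 0.05 was reached by 2 of 11 members in mutant and 3 of 11 in control cells. The median log2 fold change over the members was -0.32 in mutant and -0.12 in control cells, and over all loci -0.03 and -0.13.

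Hoxb3 averaged 12.2 CPM in the mutant high samples and 28.6 CPM in the mutant low ones, a log2 fold change of -1.22 (SE 0.31, edgeR's quasi-likelihood test, adjusted p = 0.00802). Without mutant high replicate 2 it was -0.83 (adjusted p = 0.113), and with each transcript as a feature the adjusted p was 0.0874. In control cells it averaged 34.5 CPM in high and 43.7 CPM in low (log2 fold change -0.34, adjusted p = 0.362). Hoxb2 averaged 7.93 CPM in the control high samples and 22.3 CPM in the control low ones, a log2 fold change of -1.49 (SE 0.59, adjusted p = 0.0451). That call held in 13 of 25 alternative settings, with adjusted p from 0.000288 to 0.210. These comparisons share their samples with the mutant comparisons and are not independent of them.

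Per kilobase of exon, 4 genes carried most of the cluster among the loci with a known exon length. Gm11538 had none and is left out here. Its mean of 18.2 CPM in mutant high cells was above those of Hoxb3 (12.2) and Hoxb2 (11.0). The length used was that of the longest transcript of a locus. For Hoxb3 this was 3190 bases, while its short transcript uc007lbx.1, with nearly all fragments in most libraries, was matched to 1890 bases. The Hoxb3 levels per kb below are thus understated, and its ties and order with Hoxb2 and Hoxb9 can depend on the length used. In mutant low cells the level was 60.0 ± 5.55 CPM per kb for Hoxb7 and 38.8 ± 9.93 for Hoxb9, and the next were Hoxb3 at 8.97 and Hoxb2 at 8.46, whose ranges overlapped each other (SD, n = 4). In control low cells Hoxb7 stood at 57.2 ± 9.98 CPM per kb and Hoxb9 at 37.6 ± 12.3, with overlapping ranges, and Hoxb2 and Hoxb3 both at 13.7. In mutant high cells Hoxb7 stood at 58.3, Hoxb9 at 20.2, Hoxb2 at 6.78 and Hoxb3 at 3.82 CPM per kb. In control high cells Hoxb7 stood at 78.4 and Hoxb9 at 14.2, with Hoxb3 at 10.8 in a range overlapping that of Hoxb9, and Hoxb2 at 4.87. Hoxb8 was at 0.861 to 2.16 CPM per kb over the 4 groups, and Hoxb6, Hoxb5 and Hoxb4 lay at 1.38 or below. The minus-strand Hoxb5os was at 0.435 to 3.35 CPM per kb.

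The sum over the plus-strand loci was 239 ± 41.0 CPM in mutant low and 247 ± 34.5 CPM in control low cells (SD, n = 4 each). In high cells it was 173 ± 20.0 CPM for mutants and 189 ± 12.9 CPM for controls (SD, n = 2 each). Hoxb9, Hoxb7, Hoxb3 and Hoxb2 together made up 86.3% to 97.0% of it in each library. Gm11538 made up 3.76% to 7.03% of it in mutant low and 0% to 0.190% in control low libraries, and 9.66% to 11.5% in mutant high and 0% to 0.315% in control high libraries.

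Transcripts of a locus were kept separate as well. Of the Hoxb9 transcripts, uc007lbn.1 took 11.7% to 100% of the locus in each library and uc007lbo.1 the rest, at 38.5% to 100% for uc007lbn.1 in mutant low and 42.4% to 99.1% in control low libraries, so the groups overlapped. Of the Hoxb3 transcripts, the short uc007lbx.1 took nearly all fragments in 11 of 12 libraries. In control high replicate 2 the long uc007lbw.1 took 44.4%. Of the Hoxb8 transcripts, uc007lbp.1 took 95.3% to 99.4% in every library.

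Neighbouring loci were compared as a local background. Within 500 kb of the window, 22 other loci were listed and 11 of them tested. In low cells 0 of these 11 were called by edgeR's quasi-likelihood test and 0 had an unadjusted p under 0.05, and in high cells 1 was called higher in mutants, B4galnt2, and 1 lower, Nfe2l1. B4galnt2, a glycosyltransferase, averaged 11.9 CPM in mutant high and 1.15 CPM in control high cells.

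Hox cofactors and cell markers were examined beside the cluster. Of 4 Hox cofactors paired with a row (Pbx3 and Meis1 to Meis3), 1 was called higher in mutant low cells, Meis1, and 3 in mutant high cells, against 4.82% and 16.3% of all loci called higher. Meis1, a partner of Hox proteins and also a stromal gene, averaged 74.8 CPM in mutant low and 32.5 CPM in control low cells, and 44.5 CPM in mutant high and 5.48 CPM in control high cells. Of 6 paired PRC2 genes, 0 were called in low cells by edgeR's quasi-likelihood test, with 2 at an unadjusted p under 0.05, and 2 were called higher in mutant high cells, Ezh2 and Ezh1, against the same 16.3% of all loci. Summed levels of the 4 paired nephron progenitor markers ran from 1033 to 1314 CPM in mutant low and 1781 to 2351 CPM in control low cells. They ran from 204 to 231 CPM in mutant high and 62.7 to 128 CPM in control high cells. Stromal markers (3 of 3 paired) summed to 74.5 to 142 CPM in mutant low and 33.7 to 50.6 CPM in control low cells, and to 48.2 to 65.9 CPM in mutant high and 6.52 to 8.94 CPM in control high cells. Endothelial markers (2 of 3 paired) summed to 1.37 to 10.5 CPM over all samples and the 1 paired blood marker to 0.108 to 4.68 CPM. The progenitor, stromal and epithelial lists also differed between groups compared. In high cells the progenitor and stromal sums were higher in mutants, where Hoxb3 was called lower and Gm11538 higher. Nephron epithelium sums (4 of 4 paired) spanned 589 to 1442 CPM across mutant low libraries, against 320 to 416 CPM across control low libraries. There edgeR's quasi-likelihood test called Pax8 and Lhx1 higher in mutants and Cdh1 lower. The ranges overlapped in high libraries, at 1618 to 1875 CPM for mutants and 1565 to 1687 CPM for controls, with Pax8 alone called higher. The part of these lists in the results was not tested.

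Over the 12 samples, the loci whose log2 level was most like that of Gm11538 were Scn8a (Pearson r = 0.982), an unnamed locus at chr3:55586432-55589209 (0.974), En2 (0.972), Hoxc13 (0.968) and Bcl11a (0.965), among 10053 candidates. This likeness was added after the values had been seen, and the samples share their groups. Hoxc13 averaged 27.9 CPM in mutant low and 0.169 CPM in control low cells, and 19.1 CPM in mutant high cells, and was listed at 0 in both control high samples. The loci most like the summed cluster were Lsm2 (0.847), Eef1g (0.837), 2 unnamed loci on chromosomes 4 and 12 (0.834 and 0.831) and Gm19557 (0.831).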

How the data were processed

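RNA sequencing values were deposited by the authors as estimated counts (fragments for each transcript, unnormalized), in 1 table of 55418 rows with UCSC identifiers and mm9 positions. The table's title names CuffDiff2 raw fragments, per the file headers, while Bowtie2, HTSeq, DESeq2 and mm9 are listed per the submitters' processing notes with no roles or versions. Aligner settings and use of strand were not given in the sources used. The 303 rows without a position held 0 fragments and were left out. The planned tests assumed counts per transcript, and these were summed by same-strand overlap to loci and rounded to whole counts (99.6% to 99.9% of sums were whole within 0.01). Start positions were printed counting from 1.

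Names came from rows with exactly the span of a GENCODE M21 transcript (15 genes within 1 Mb sharing 1 spacing, 4 of them in the window) and, for other rows, from a gene start or end within 50 bases of the spacing to at least 3 such rows. Loci were tested with edgeR 4.0.16 (R 4.3.3) by its quasi-likelihood F test (TMM, filterByExpr on group, robust), two-sided, with 12 samples in 1 fit of 4 groups and Benjamini-Hochberg adjustment over 13749 loci, threshold 0.05. The fit was checked on simulated data. CPM uses the TMM-scaled library sizes, and a floor of 3 fragments over a group replaced a count of 0. DESeq2 1.42.0, limma 3.58.1 (voom), other filters and normalizations, transcripts as features, left-out samples and replicate blocks were alternatives. Every locus in the window was described, by a rule on position; the members and lists were chosen with earlier results of these data known. Replicate numbers in the titles did not clearly pair the samples. Correlations of deviations from group means between same-numbered low samples were all positive, 0.086 to 0.50. The high-sample value, -0.062, was the same for each number, because groups of 2 give mirrored deviations. The description numbers that high and low libraries share did not clearly pair them either (-0.086 to 0.23 over 4 pairs). The labels do not say what these numbers mark.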

Additional observations from a re-analysis of the deposited data

Results flagged for a closer look

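One value stood far from its group. Hoxb5os, the minus-strand transcript opposite Hoxb6 and Hoxb5, was at 7.20 CPM in control low replicate 2, while the next highest control low sample was at 0.657 CPM, a gap of 0.909 of the group's range. Of 23 groups of 4 samples examined in this way, 1 was picked out.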

How the results depend on the processing

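The main counts of members called were 1 (mutant minus control, low cells), 3 (mutant minus control, high cells), 2 (high minus low, mutant cells), 2 (high minus low, control cells) and 0 (the difference of mutant effects). With 1 library left out they ran from 1 to 1, 1 to 3, 0 to 3, 0 to 3 and 0 to 0. For high minus low control cells the count was 1 with RLE normalization and 1 with no filter. With each transcript as a feature the counts were 1 in mutant minus control high cells, 0 in high minus low mutant cells and 1 in high minus low control cells. With 50% reciprocal overlap they were 1, 1 and 1 in the same 3 comparisons, and with only the 2 groups compared, 1 in high minus low mutant cells. Opening the window to the Hoxb13 row, an alternative added after the data were seen, gave 2 in low cells, Gm11538 and Hoxb13. Both passed the count filter only through mutant samples, so this count is a description. The replicate block on title numbers gave 1, 3, 3, 3 and 0, with Hoxb8 called lower in high cells, and the block on description numbers, over 8 libraries, gave 3 for high minus low mutant cells, 2 for control cells and 0 for the difference of mutant effects, with Hoxb8 called lower in mutant high cells (log2 fold change -1.81, adjusted p = 0.0376) and not in control high cells (-1.10, 0.146). Neither set of numbers clearly paired the samples. The cause of these shifts was not tested. Gm11538 was called in all 26 low-cell and 24 high-cell alternatives, with adjusted p up to 0.00681 and 0.0147. Because Gm11538 passed the count filter only through mutant samples, these calls are a description. Its low-cell log2 fold change was 7.57 among libraries with description numbers up to 7 and 4.90 among those above 7. Over all 1416 alternatives for single loci, 1367 stayed on the same side of the threshold, 40 lost a call, 9 gained one and 0 called values changed sign. Direction was not compared where a locus was called in neither fit. The high groups hold 2 libraries each, so calls there rest on little depth, and Hoxb6, Hoxb4, Hoxb1 and Hoxb13 rest on few fragments.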
